A study of Rattus norvegicus with 30 samples.

Results

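A set of 88 early genes, out of 32545 genes listed, stood above healthy nerve at day 7 after repair of the rat median nerve and was back near or below the healthy level at day 21. The set was defined on log2(CPM + 1), where CPM is a gene's count scaled to a common library total of 1000000 and the value for a group is the mean over its libraries. A gene had to be at least 1.5 log2 units above the control mean at day 7 after both delayed and immediate repair, and at most 0.75 above it at day 21 after both. The day 21 limit has no lower bound. By group mean, 3 genes were more than 0.75 below control at day 21 after delayed repair and 1 after immediate repair. Genes were ranked by the smaller of their drops between day 7 and day 21 in delayed and immediate repair. The size limit of 150 genes was not reached, so every gene that met the rule is in the set. The control, day 7 and day 21 libraries therefore chose the genes, and their values there are given as a description with no test. The day 14 repair libraries were not used by the rule.

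In all, 1545 genes were at least 1.5 above control at day 7 in both repairs. Of these, 1381 were still more than 0.75 above control at day 21 in both repairs and are called held genes here. A further 76 were above that limit in only 1 repair. The early genes are thus the small remainder of the day 7 response that was at most 0.75 above control by day 21 in both repairs.

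The tissue was median nerve of female wild-type (WT) rats. In the repair groups the nerve was cut, leaving a gap of 8 mm that was bridged with a chitosan conduit of 10 mm, a tube made from a sugar polymer. Delayed repair (DEL) was done 3 months after the injury and was sampled at day 7 (5 libraries), day 14 (4) and day 21 (3) after the repair. Immediate repair (IMM) followed the injury at once and was sampled at day 7 (4), day 14 (4) and day 21 (5). The control group (CTR_NERVE, 5 libraries) was healthy nerve with no injury or repair, and it serves both repairs. Delayed nerves had therefore been injured for 3 months longer than immediate nerves at every sampling, and no group with a delay but no repair was analysed here. Each library is messenger RNA of a whole tissue sample, so fewer cells of a type and less RNA per cell cannot be told apart.

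After a nerve is bridged by a tube, plasma proteins first form a fibrin cable between the stumps, and neutrophils and macrophages enter the gap. Schwann cells, fibroblasts, perineurial cells and endothelial cells then migrate in along that cable. Schwann cells of the distal stump, cut off from their axons, turn into repair cells that clear myelin and guide regrowing axons. Without axons for months, such repair cells are known to lose part of this capacity, which is the usual background to comparing delayed with immediate repair.

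Total counts were 11958242 to 17334752 per library, with a median of 14858868.5. Genes are identified by Ensembl rat gene IDs only, and 0 of these could be paired with a symbol from the tables used here. The early genes are therefore described by level and course, without names, roles or sequences, and the labelled tissue could not be checked against marker genes. Some libraries stood apart. Over all early genes, the Spearman correlation of a library with the mean of the rest of its group, a description across genes, was 0.909 for delayed day 7 replicate 5 and 0.933 for immediate day 21 replicate 4, against 0.989 to 0.991 for the controls. Immediate day 7 replicate 4 was also at 0.933. With replicate 5 of delayed day 7 and replicate 4 of immediate day 21 both left out, the rule was met by 115 genes, 87 of them among the 88.

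The early genes ran from very low to high levels. Their mean level in control nerve was 0 to 892.9 CPM with a median of 10.5 CPM, and over the 9 day 7 libraries it was 2.59 to 3624 CPM with a median of 57.7 CPM. The median ratio of the day 7 to the control CPM was 6.06, with a range of 3.03 to 221 among the 87 genes with any control count. The rule demands a larger CPM ratio of a gene with a lower control level, since it adds 1 before the log, so the ratios by class are a description of what it let in. The 17 early genes under 1 CPM in control nerve had a median of 3.66 CPM at day 7, against 0.175 CPM in control nerve, and a median ratio of 24.7. The 26 genes at 1 to 10 CPM had a median ratio of 6.42, and the 39 genes at 10 to 100 CPM had 4.84. The 6 genes at 100 CPM or more had a median of 1728 CPM at day 7, against 300.1 CPM in control nerve, and a median ratio of 3.58. On the log2(CPM + 1) scale used by the rule these classes were closer together. There the median day 7 difference, in order of rising control level, was 1.77, 2.29, 2.03 and 1.83 after delayed repair and 1.93, 2.35, 2.14 and 1.73 after immediate repair.

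**Figure D1:**
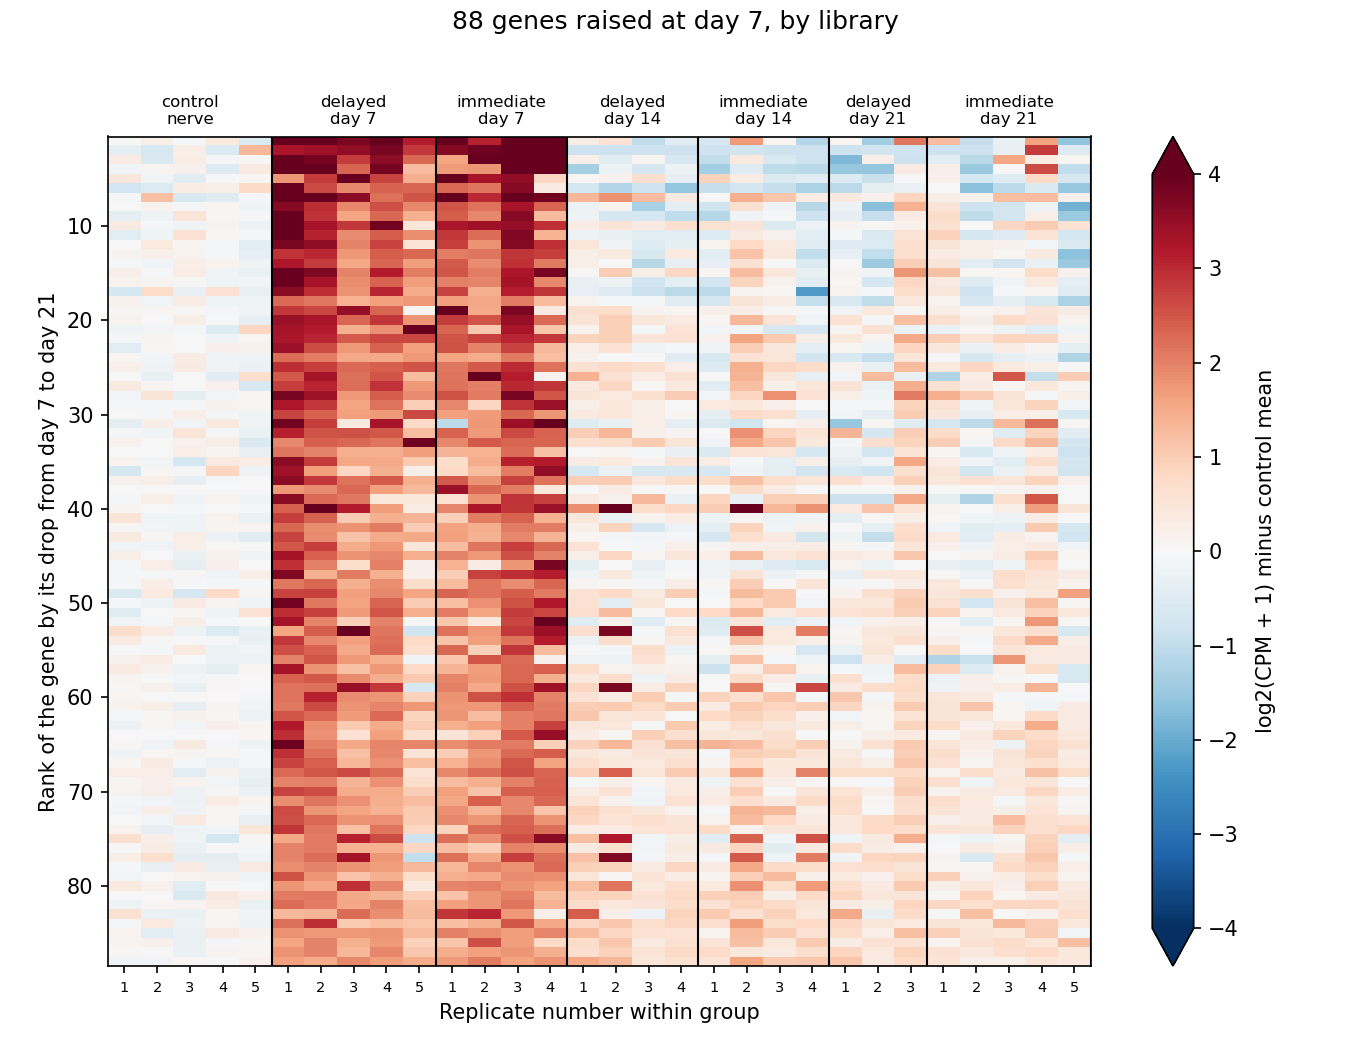
Difference of each early gene from its control mean, in log2(CPM + 1), in every library; rows are the 88 genes in rank order from 1 at the top to 88, columns are the 30 libraries by group, and colours stop at 4 above and below control. The day 7 columns are warm over nearly the whole set, day 14 and day 21 columns are pale, and delayed day 7 replicate 5 is paler than the other day 7 libraries.

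Several early genes bordered on the limits of the rule. The lowest day 7 difference inside the set was 1.5026 and the highest just outside was 1.4987, and 15 members lay within 0.1 of that limit, with 18 genes as close on the other side. The highest day 21 difference inside was 0.7491 and the lowest outside was 0.756, with 16 members and 23 other genes within 0.1. The drop between day 7 and day 21 that ranked the genes was 0.89 to 4.29, with a median of 1.62. The set is a range cut from a continuum, not a class with a gap around it.

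At day 7 the early genes took a larger share of all counts than in healthy nerve. They held 2.00% ± 0.66 (SD, n = 5) of counts after delayed repair, or 2.10% ± 0.72 (n = 4) without replicate 5, and 1.84% ± 0.43 (n = 4) after immediate repair, against 0.410% ± 0.026 (n = 5) in control nerve. The most abundant 5 members made up 56.1% of the members' counts at day 7, so this share follows a few genes. In delayed day 7 replicate 5 those 5 made up 74.6%, and the most abundant gene alone 32.6%, against 18.8% over all day 7 libraries. At day 14 the share was 0.494% ± 0.078 after delayed and 0.509% ± 0.193 after immediate repair (SD, n = 4 each). At day 21 it was 0.493% ± 0.216 (SD, n = 3) after delayed and 0.431% ± 0.101 (SD, n = 5) after immediate repair.

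A measure that weights genes equally was therefore used for the course. For each library it is the median, over the early genes, of the difference in log2(CPM + 1) from the control mean. At day 7 it was 2.76, 2.39, 1.74, 1.97 and 1.19 in the 5 delayed libraries, and 1.89, 1.82, 2.56 and 2.21 in the 4 immediate libraries. Delayed day 7 replicate 5 was the lowest of all 9. The mean was 2.01 ± 0.60 (SD, n = 5) after delayed repair, or 2.22 ± 0.45 (n = 4) without replicate 5, and 2.12 ± 0.34 (n = 4) after immediate repair. These values were chosen by the rule and carry no test.

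Single genes varied widely between day 7 libraries. The range over the 9 libraries had a median of 2.13 log2 units, from 0.61 to 5.82. Delayed day 7 replicate 5 was the lowest of the 9 in 53 of the 88 genes and lay at or below the highest control library in 11. Delayed day 7 replicate 1 was the highest of the 9 in 42. In 73 of the 88 genes all 9 day 7 libraries lay above all 5 control libraries, and in 82 when delayed replicate 5 was left out. Over all 16015 genes tested the first of these shares was 19.3%, and the rule used this contrast, so nothing is read from it.

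At day 14, whose repair libraries the rule did not use, the early genes were already close to the healthy level in both repairs. That level comes from the control libraries, which the rule did use. The library medians were 0.42, 0.43, 0.19 and 0.30 above control after delayed repair, and 0.00, 0.86, 0.40 and 0.20 above control after immediate repair. The 2 repairs overlapped, and every day 14 library lay below every day 7 library of either repair. The means were 0.335 ± 0.110 (SD, n = 4) after delayed repair and 0.365 ± 0.370 (n = 4) after immediate repair. At day 21, which the rule used, the library medians were 0.11, 0.05 and 0.74 after delayed repair and 0.37, 0.06, 0.25, 0.65 and 0.06 after immediate repair. Delayed day 21 replicate 3 and immediate day 21 replicate 4 were the highest of their groups. Without replicate 4 the immediate day 21 mean was 0.186 ± 0.154 (n = 4), against 0.280 ± 0.248 (n = 5) with it.

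**Figure D2:**
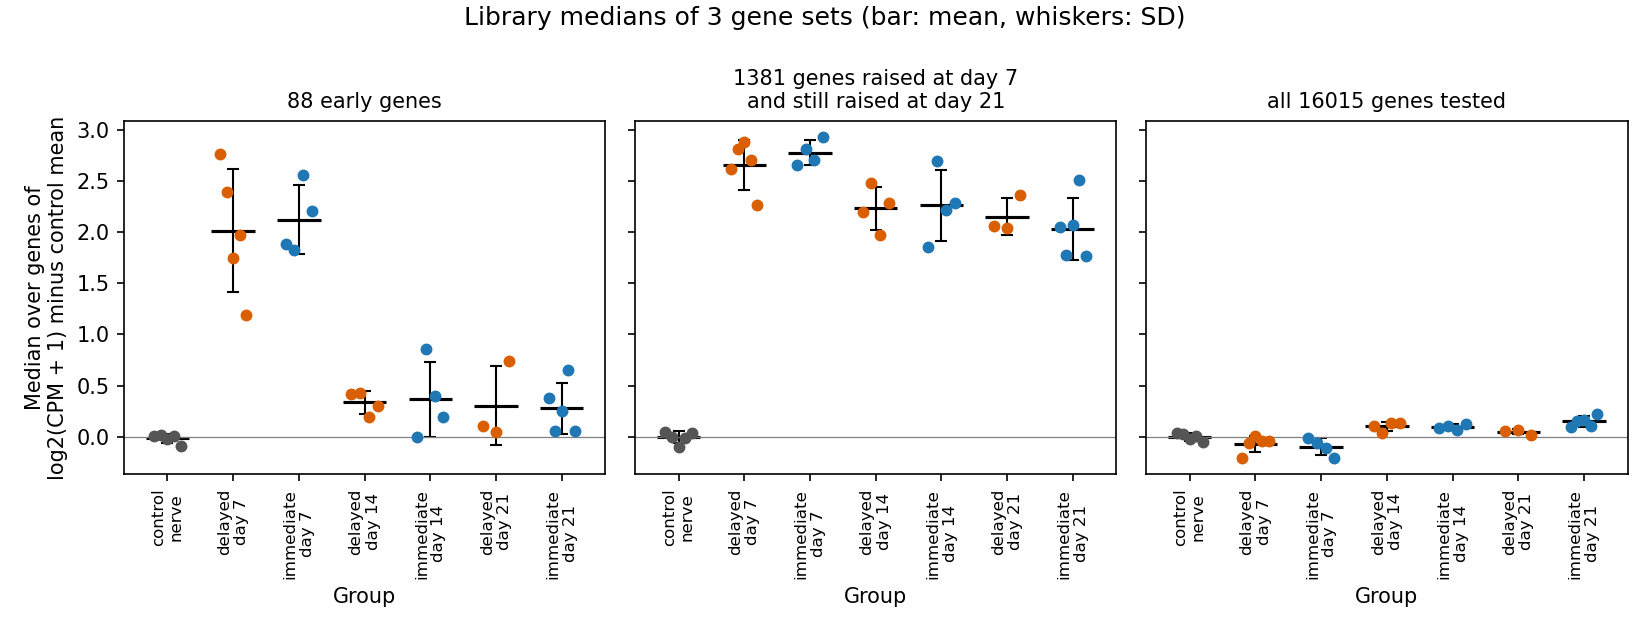
Median difference from the control mean, in log2(CPM + 1), of each library over the 88 early genes, the 1381 held genes and all 16015 genes tested; points are libraries, bars are group means and whiskers are SDs. The early genes are near 2 at day 7 and under 0.9 in every day 14 and day 21 library, whereas the held genes stay above 1.7 in every repair library and all genes tested stay near 0.

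The held genes show how unequal the courses were by day 14. Of its own day 7 difference, the median early gene had lost 82.6% at day 14 after delayed repair and 81.7% after immediate repair. The median held gene had lost 20.2% after delayed repair and 23.4% after immediate repair. In library medians the held genes were 2.23 ± 0.21 above control at delayed day 14 and 2.26 ± 0.35 at immediate day 14 (SD, n = 4 each). The 2 sets were separated by their day 21 values, so a gap at day 14 follows in part from how they were made and was not tested. Between day 14 and day 21 the median early gene changed little: the day 14 level exceeded the day 21 level by 0.05 in delayed repair and by 0.11 in immediate repair, against 0.05 and -0.05 over all genes tested.

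All 88 early genes had a lower mean at day 14 than at day 7 in both repairs. Day 7 and day 14 libraries did not overlap in 62 of the 88 after delayed repair and in 66 after immediate repair. Over all genes tested, 6.18% stood above day 14 without overlap at day 7 after delayed repair and 6.79% after immediate repair. Since the day 7 libraries chose the genes for being high, nothing is read from these shares.

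**Figure D3:**
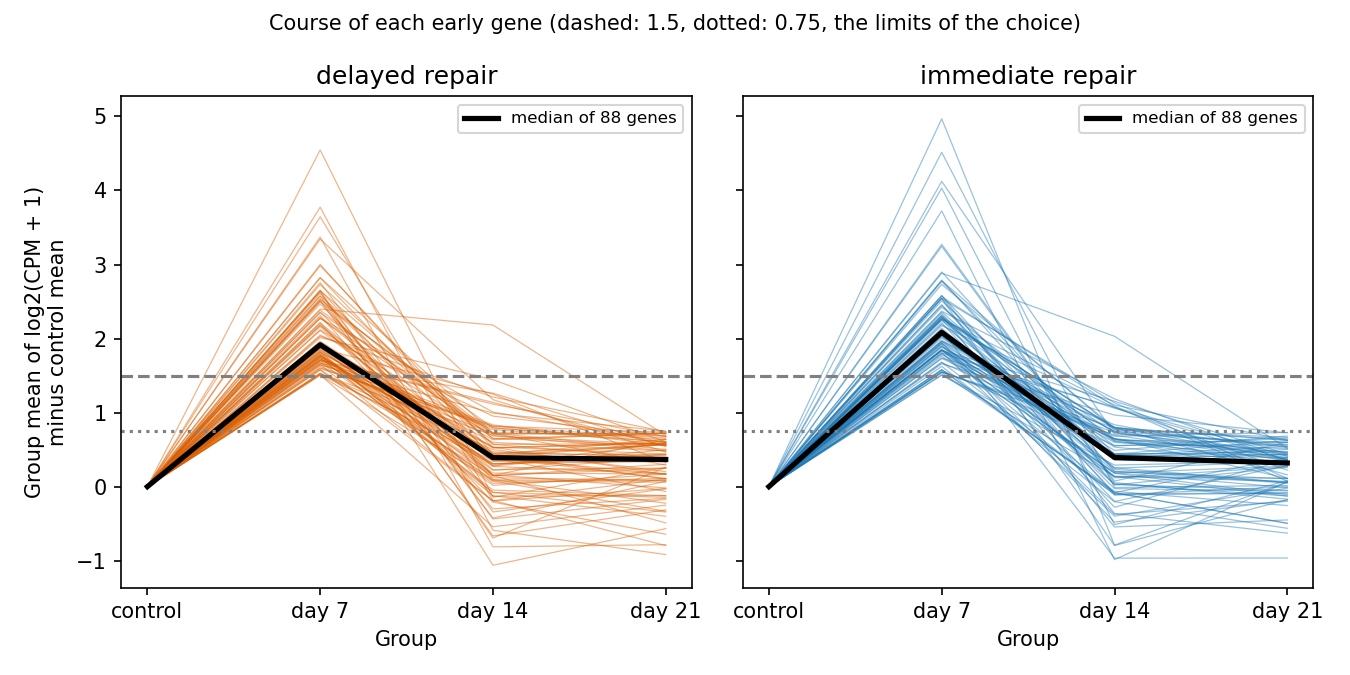
Mean difference from control in log2(CPM + 1) of each of the 88 early genes at control, day 7, day 14 and day 21, for delayed repair (left) and immediate repair (right); each thin line is a gene, the black line is the median gene, and the dashed and dotted lines are the limits of 1.5 and 0.75. The median gene is 1.92 above control at day 7 and 0.39 at day 14 after delayed repair, and 2.08 and 0.39 after immediate repair.

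By group mean, 69 of the 88 early genes lay within 0.75 of control at day 14 after delayed repair and 66 after immediate repair, with 62 in both. A minority of 13 genes was still more than 0.75 above control in both repairs. Those 13 had a median day 7 difference of 1.87 after delayed repair and 2.18 after immediate repair, close to the 1.89 and 2.03 of the 62 genes near control. At day 21 the medians of the 13 were 0.60 after delayed repair and 0.41 after immediate repair, against 0.19 and 0.28 for the 62. A pair of genes lay more than 0.75 below control at day 14 in both repairs, and the other 11 genes were beyond the limit in only 1 repair.

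Day 14 libraries were compared with control libraries in edgeR's quasi-likelihood test over all 16015 genes, with Benjamini-Hochberg adjustment and a limit of 0.05. The control libraries also served the rule, so these calls are not independent of it. After delayed repair 18 of the 88 early genes rose above control and 2 fell below it, which is 20.5% and 2.27% of the set. Over all genes tested, 26.2% were called higher and 25.7% lower in that comparison. After immediate repair 19 rose and 2 fell, which is 21.6% and 2.27%, against 26.1% higher and 25.4% lower over all genes tested. Since the rule used the control libraries, nothing about the early genes is read from these shares. Both comparisons share the control libraries. They had 14 higher calls in common, which is 77.8% of the delayed and 73.7% of the immediate calls, and the same 2 lower calls. The overlap over all genes tested is not given here, so nothing about the early genes is read from these shares.

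The fitted log2 fold change of the median early gene over control was 0.36 at delayed day 14 and 0.41 at immediate day 14, against -0.0007 and 0.012 for the median of all genes tested. The control libraries helped choose the early genes, so this gap is a description. Without immediate day 14 replicate 2 the immediate median was 0.20. The counts of calls leaned on the second replicates. Without delayed day 14 replicate 2, 11 early genes were called higher and 0 lower after delayed repair, against 3800 and 3685 of all 16029 genes tested. Without immediate day 14 replicate 2, 10 were called higher and 0 lower after immediate repair, against 3849 and 3662 of all 15994 genes tested. Delayed day 14 libraries lay wholly above control in 22 of the 88 genes, and immediate day 14 libraries in 15 (17.05%). Over all genes tested these shares were 31.2% for delayed and 28.9% for immediate repair. They too involve the control libraries and are a description.

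The gene with the largest drop, ENSRNOG00000005053, shows the full early course. This ID and the 3 below were picked after their values were seen. It had 1140, 814, 293.9, 652 and 188.9 CPM in the delayed day 7 libraries and 545, 181.3, 888 and 693 CPM in the immediate day 7 libraries, against 21.0, 24.0, 20.2, 27.7 and 13.6 CPM in control nerve. Every day 7 library was far above every control library. At day 14 it had 25.8, 31.4, 9.99 and 14.7 CPM after delayed repair and 12.6, 69.3, 22.2 and 8.70 CPM after immediate repair, on both sides of the controls. Group means at day 14 were 20.5 ± 9.82 CPM in delayed repair and 28.2 ± 28.0 CPM in immediate repair (SD, n = 4 each), against 21.3 ± 5.23 CPM in control nerve (SD, n = 5). The log2 difference from control was -0.17 (SE 0.73, edgeR adjusted p = 0.86) at delayed day 14 and 0.26 (SE 0.73, edgeR adjusted p = 0.786) at immediate day 14. At day 21 it had 21.8, 7.21 and 92.6 CPM after delayed repair and 49.7, 10.5, 16.9, 65.8 and 6.35 CPM after immediate repair. Delayed day 21 replicate 3 was above all controls, as were immediate day 21 replicates 1 and 4, so its level differed between libraries at day 21.

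ENSRNOG00000051594 was nearly silent in healthy nerve and was the only early gene at least 1.5 above control at day 14 in both repairs. It had 4.52, 22.1, 8.43, 2.37 and 0.288 CPM in the delayed day 7 libraries and 3.05, 9.09, 6.64 and 10.6 CPM in the immediate day 7 libraries. Control nerve had 0.136, 0.0609, 0, 0.0668 and 0 CPM, which is 4 counts over the 5 libraries. Each day 7 library was above each control. At day 14 it had 2.78, 42.4, 0.709 and 0.848 CPM after delayed repair and 1.11, 15.6, 1.66 and 2.66 CPM after immediate repair, all above the controls, with the second replicate far above the others in both repairs. Over control it rose by 7.48 on the log2 scale (SE 1.53, edgeR adjusted p = 0.00022) at delayed day 14 and by 6.26 (SE 1.51, edgeR adjusted p = 0.00118) at immediate day 14. Without the second replicate the values were 4.40 (edgeR adjusted p = 0.00738) after delayed and 4.74 (edgeR adjusted p = 0.0113) after immediate repair. With 4 control counts the size of the ratio is poorly fixed. The gene was picked for its day 14 difference from control, so these adjusted p-values are a description. At day 21 it averaged 0.745 ± 0.512 CPM after delayed repair (SD, n = 3) and 0.661 ± 0.948 CPM after immediate repair (SD, n = 5).

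The 2 genes called lower than control at day 14 in both repairs were high at day 7 like the rest. They were picked for those calls, so the adjusted p-values against control given for both are a description. ENSRNOG00000002916 had 16.0, 17.5, 19.7, 23.7 and 11.4 CPM in the delayed day 7 libraries and 21.4, 24.9, 55.5 and 278.1 CPM in the immediate day 7 libraries. Control nerve had 0.339, 0.122, 1.10, 0.200 and 3.43 CPM. Immediate day 7 replicate 4 was far above the other 8 day 7 libraries, and the controls themselves were spread widely. At day 14 the gene had 0 counts in all 4 delayed libraries and 1 count over the 4 immediate libraries, against 72 counts over the 5 control libraries. Delayed day 14 was thus at least 19.2-fold lower than the pooled controls, taking 3 counts over the group as the floor (edgeR adjusted p = 0.0299). That bound covers counting error only, and 47 of the 72 control counts came from control replicate 5. Immediate day 14 was at 0.0178 of the control level, with a 95% counting interval of 0.0004 to 0.103 that covers counting error only (edgeR adjusted p = 0.0445). These calls leaned on control replicate 5: without it the edgeR adjusted p was 0.104 after delayed and 0.158 after immediate repair. They were also near the limit. Without any 1 of the 4 day 14 libraries the edgeR adjusted p was 0.0534 to 0.0576 after delayed and 0.0829 to 0.0917 after immediate repair. The immediate call was also lost without control replicate 3. At day 21 the gene had 0, 1 and 0 counts after delayed repair. It had 0, 0, 5, 177 and 3 counts after immediate repair, so its immediate day 21 mean rests on replicate 4.

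ENSRNOG00000043098 was expressed more evenly in healthy nerve. It had 446.5, 178.7, 106.9, 145.1 and 144.3 CPM in the delayed day 7 libraries and 140.4, 126.7, 355.8 and 35.6 CPM in the immediate day 7 libraries, against 15.9, 18.8, 34.3, 32.4 and 48.1 CPM in control nerve. Immediate day 7 replicate 4 lay within the control range and the other 8 above it. At day 14 it had 16.6, 11.8, 15.2 and 8.74 CPM after delayed repair and 14.0, 16.2, 14.0 and 10.9 CPM after immediate repair, at the lower edge of the controls or under it. It fell by 1.35 on the log2 scale (SE 0.52, edgeR adjusted p = 0.0316) against control at delayed day 14 and by 1.27 (SE 0.52, edgeR adjusted p = 0.0423) at immediate day 14. After delayed repair the call was lost without control replicate 3 or 5 or delayed day 14 replicate 2 or 4, with an edgeR adjusted p of up to 0.0915. After immediate repair it was lost without control replicate 3, 4 or 5 or any 1 of the 4 immediate day 14 libraries, with an edgeR adjusted p of up to 0.118. At day 21 it averaged 18.9 ± 5.27 CPM after delayed repair (SD, n = 3) and 15.1 ± 7.79 CPM after immediate repair (SD, n = 5), against 29.9 ± 13.01 CPM in control nerve (SD, n = 5).

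**Figure D4:**
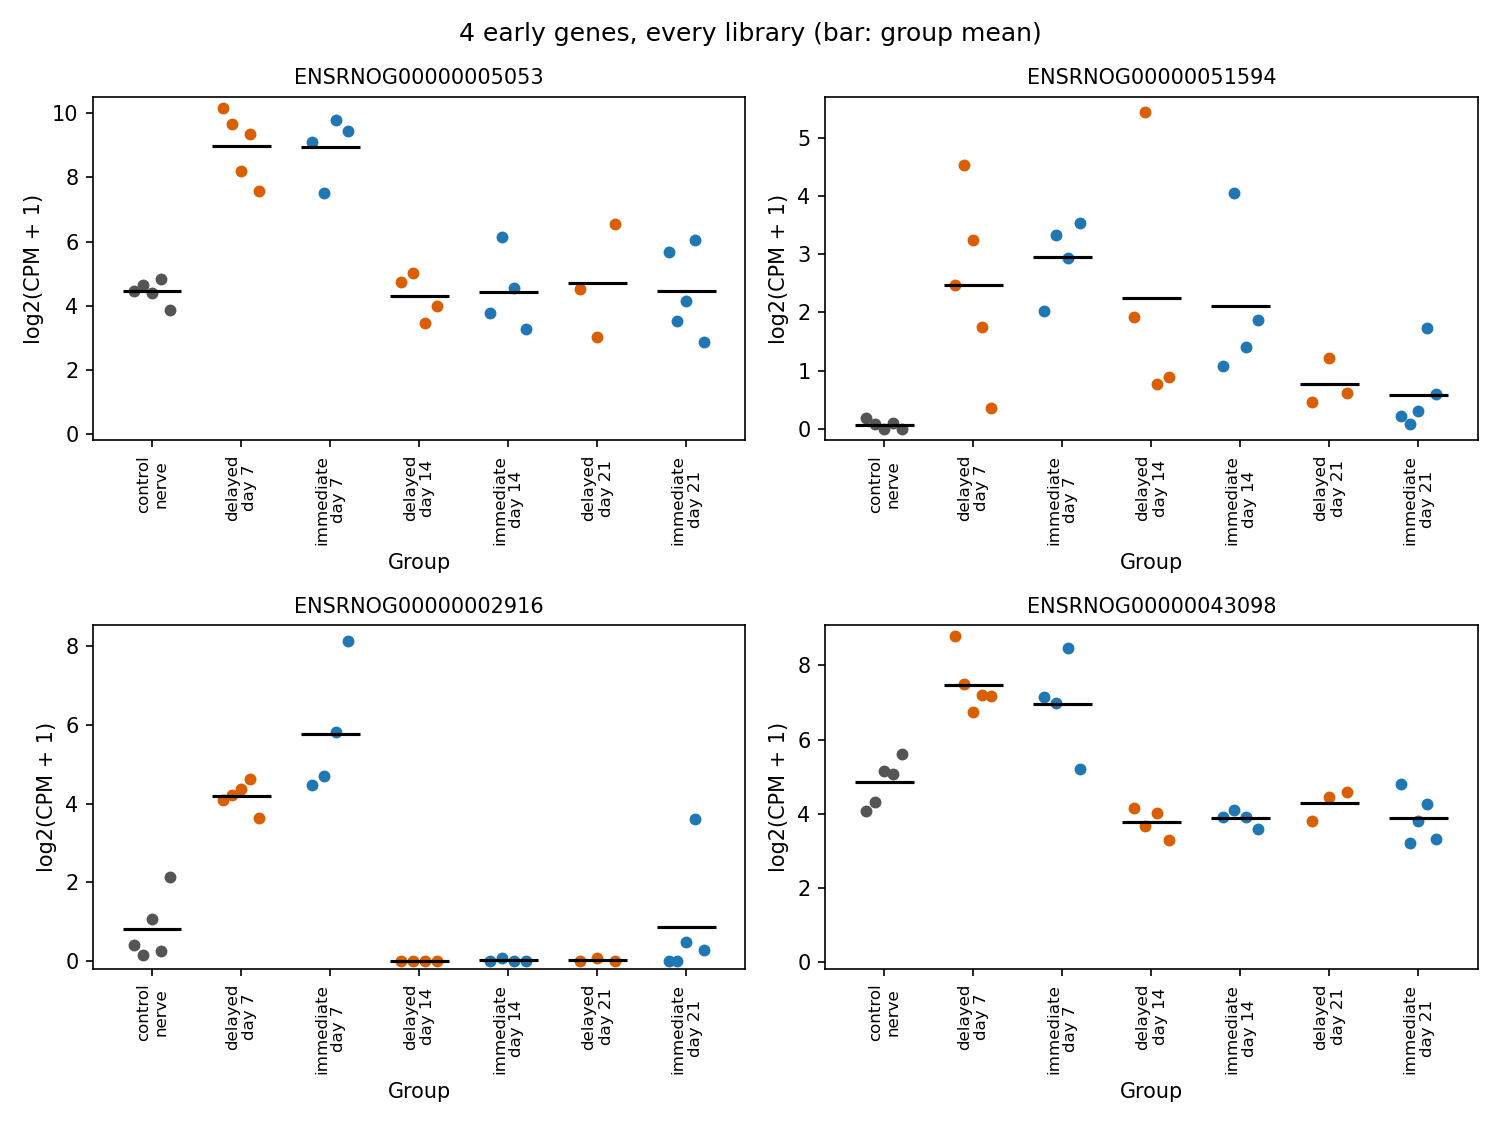
Level in log2(CPM + 1) of 4 early genes in each of the 30 libraries by group; points are libraries and bars are group means. ENSRNOG00000005053 lies on both sides of the controls at day 14, ENSRNOG00000051594 at day 14 is highest in the second replicate of each repair, and ENSRNOG00000002916 has 1 count over all 8 day 14 libraries.

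Replicates of 1 repair and day differed from each other over many early genes at once. Immediate day 14 replicate 2 was the highest of its 4 libraries in 65 of the 88 genes, delayed day 14 replicate 2 in 42, and delayed day 21 replicate 3 was the highest of 3 in 64. In immediate day 14 replicate 2 the held genes stood highest as well, with a library median of 2.69 above control, against 1.85, 2.22 and 2.28 in replicates 1, 3 and 4. In delayed day 21 replicate 3 the held genes were at 2.36, against 2.05 and 2.03 in replicates 1 and 2. In immediate day 21 replicate 4 they were at 2.51, against 1.76 to 2.07 in the other 4. What part the state of these samples had in the early genes' values was not tested.

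A group of 8 early genes was at least 1.5 above control in delayed day 14 replicate 2. They were picked for that value, so it is a description, and ENSRNOG00000051594 is among them. Their median difference in the 4 delayed day 14 libraries was 1.19, 3.45, 0.37 and 0.65, and in the immediate day 14 libraries it was -0.0003, 2.19, 0.41 and 2.01. Immediate replicates 2 and 4 were thus high in the same genes, and 7 of the 8 reached 1.5 in each. The other 80 early genes had medians of 0.35, 0.39, 0.15 and 0.28 in the delayed and of 0.00, 0.78, 0.39 and 0.03 in the immediate day 14 libraries, so immediate replicate 4 stood out in the 8 genes and not in the 80. In delayed day 7 replicate 5 the 8 genes had a median of -0.17, against 2.08, 2.33, 3.25 and 2.17 in delayed day 7 replicates 1 to 4, and 1 of the 8 reached 1.5 there. The other 80 genes had a median of 1.23 in that library.

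The repairs were set against each other at day 14, which compares their levels on that day and not their courses. The rule fixed both groups as high at day 7 and as at most 0.75 above control at day 21, so only the day 14 test is given. There edgeR called 0 of the 88 early genes, 0 had an unadjusted p under 0.05, and DESeq2 called 0 with 0 unadjusted. Over all genes tested edgeR called 0%, with 244 genes at an unadjusted p under 0.05, and DESeq2 called 8 genes. The fitted log2 difference, delayed minus immediate, was -1.89 to 1.22 over the early genes with a median of -0.06, against -0.01 for all genes tested. It was under 2-fold in 82 of the 88, and 36 were positive. Over all 16015 genes tested it was under 2-fold in 15162, and 7804 were positive. The 95% interval of a single early gene had a median half-width of 1.01 log2 units, and in 31 of the 88 (35.2%) it lay wholly within 2-fold. Over all genes tested the median half-width was 0.61 and 59.7% of intervals lay wholly within 2-fold, so early genes were less precisely measured. For the other early genes the interval reached past 2-fold in at least 1 direction. The 2 repairs did not overlap in 1 of the 88 genes, which is 1.14%, against 1.83% of all genes tested.

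For the genes described above, the day 14 difference between delayed and immediate repair was -0.44 (SE 0.77) for ENSRNOG00000005053, 1.22 (SE 1.14) for ENSRNOG00000051594 and -0.08 (SE 0.53) for ENSRNOG00000043098, each with an edgeR adjusted p of 1. Their signs turned without a single library: 0.50 for ENSRNOG00000005053 without immediate day 14 replicate 2, -1.85 for ENSRNOG00000051594 without delayed day 14 replicate 2, and 0.08 for ENSRNOG00000043098 without delayed day 14 replicate 4. No ratio is given for ENSRNOG00000002916, which was at or under 1 count in both groups.

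At day 7 and day 21 the rule itself held both repairs on the same side of its limits, so their difference there is given as a description, with no test. The median fitted difference, delayed minus immediate, was 0.04 over the early genes at day 7, and 0.20 without delayed day 7 replicate 5. At day 21 it was 0.24, with 65 of the 88 early genes positive, and it was -0.19 without delayed day 21 replicate 3 and 0.34 with replicate 5 of delayed day 7 and replicate 4 of immediate day 21 both left out. Over all genes tested the medians were 0.04 at day 7 and -0.02 at day 21. These medians thus moved with single libraries.

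**Figure D5:**
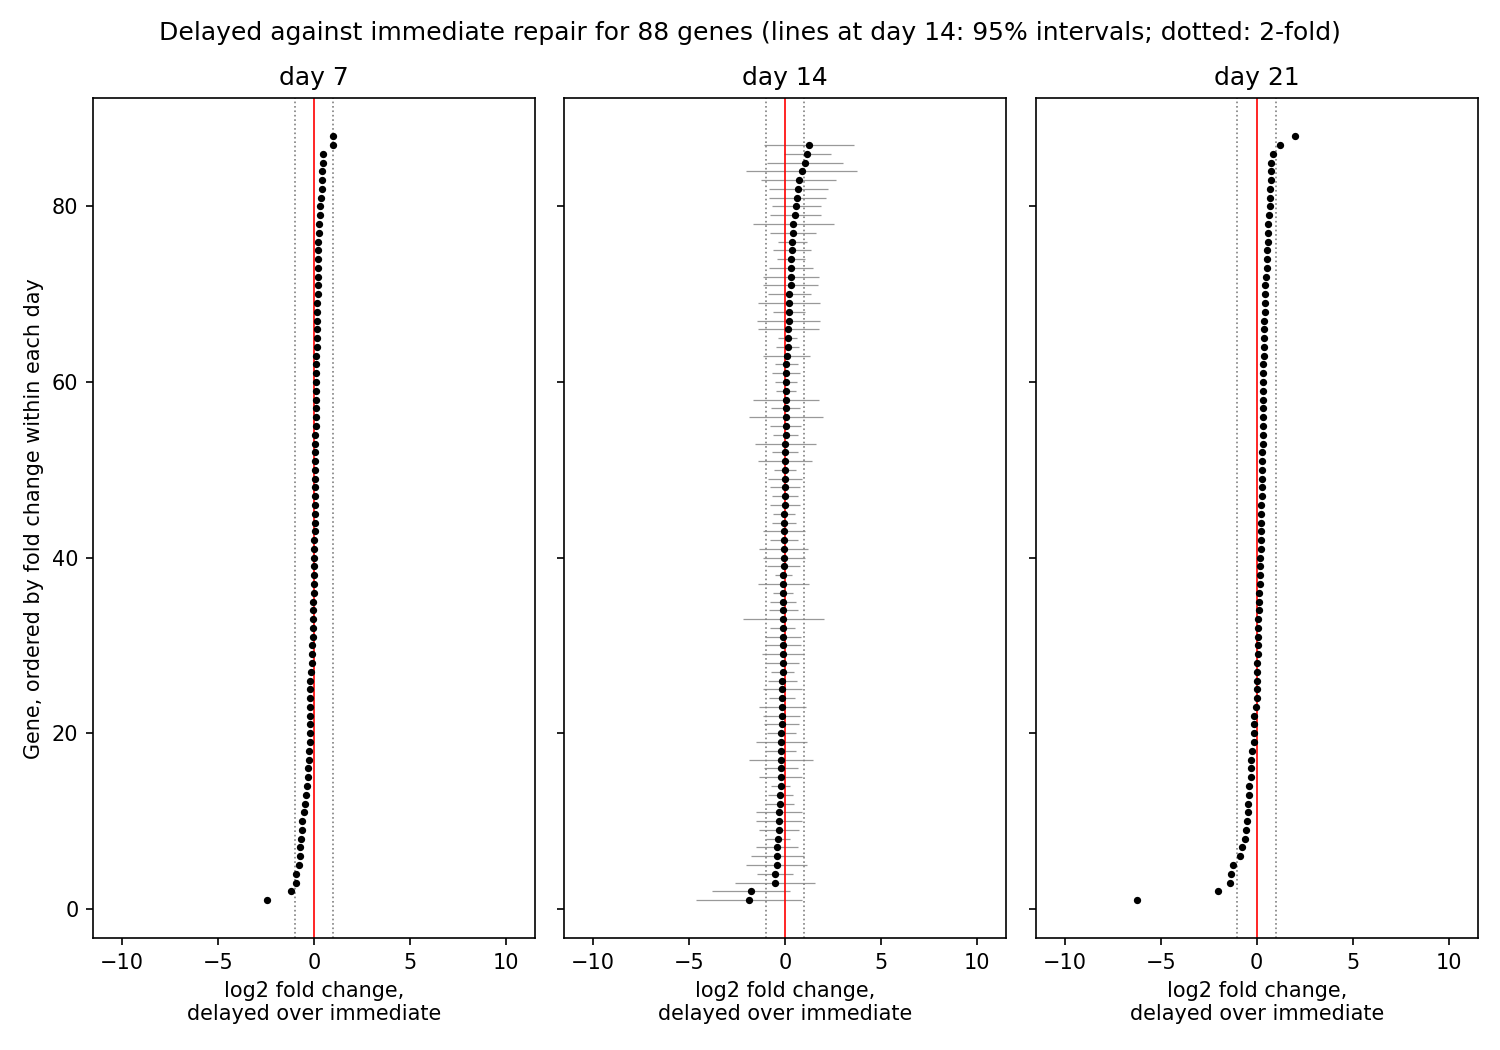
Fitted log2 difference of delayed over immediate repair for each early gene at day 7, day 14 and day 21, sorted by size within a day; lines at day 14 are 95% intervals, dotted lines mark 2-fold in either direction, and day 7 and day 21 carry no interval because their libraries chose the genes. ENSRNOG00000002916 is left out at day 14, where both groups are at or under 1 count, and most day 14 points lie within 2-fold while most intervals reach beyond it.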

How the data were processed

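The authors deposited raw counts, whole numbers of reads per Ensembl rat gene ID for 30 libraries. Per the labels' protocols, RNA was extracted with TRIzol, had an integrity number above 6, and 400 ng went into non-directional poly(A) libraries, so overlapping and antisense genes cannot be separated. Per the submitters' processing notes the tools included HISAT2 2.0.5, DESeq2 1.38.3 and featureCounts 1.5.0-p3, with no roles stated. The genome build is not given in the sources used here.

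CPM used column sums and log2 values a pseudocount of 1. Of 32545 genes, 8248 had 0 counts throughout and 16015 passed filterByExpr. All 88 early genes passed, which their day 7 level alone can ensure. The quasi-likelihood test of edgeR 4.0.16 (R 4.3.3, TMM factors, robust dispersion) was fitted to all 30 libraries in 7 groups. Benjamini-Hochberg adjustment was over all genes tested. A trial on simulated data drew each library independently, without shifts of many genes in 1 library, so nothing is read from it. DESeq2 1.42.0 was an alternative, as were other scaling, no filter on low counts, fits of the compared groups alone, a replicate block, other limits of the rule and leaving out libraries. TMM in place of column sums moved the median of all genes tested by -0.11 at day 14 in both repairs and by -0.16 at immediate day 21. It put the median early gene at 0.27 above control at delayed and 0.30 at immediate day 14.

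The members and lists were chosen with earlier results of these data known. The lists of named pathways and cell types, and the rule for named genes, go by symbol and could not be applied. The 4 IDs described stand in for them and were picked after their values were seen. The labels do not say that replicates came from separate animals, so p-values measure only the spread between these libraries, which may be technical. They give no batch. No 2 replicates were alike within sampling noise: chi-square per degree of freedom was at least 14.9 in each of 51 pairs.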

Additional observations from a re-analysis of the deposited data

Results flagged for a closer look

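The 4 described genes, the share of counts and the mean log2 level of the early set were screened in each group of 4 or 5 libraries for a library far from the others by Dixon's test, and 7 of 35 screens stood out. Chance would mark about 1 in 20 groups of normally distributed values. The 4 genes were picked after their values were seen, so the 7 are not set against that rate. At day 7, ENSRNOG00000043098 had 446.5 CPM in delayed replicate 1, above the other 4 delayed libraries, and ENSRNOG00000002916 had 278.1 CPM in immediate replicate 4, above the other 3 immediate libraries.

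At day 14, ENSRNOG00000051594 had 42.4 CPM in delayed replicate 2 and 15.6 CPM in immediate replicate 2. ENSRNOG00000002916 had 0.0666 CPM in immediate day 14 replicate 2, which is 1 count where the other 3 libraries had 0. At day 21, immediate replicate 4 was high in both ENSRNOG00000051594, at 2.33 CPM, and ENSRNOG00000002916, at 11.2 CPM.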

How the results depend on the processing

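The size of the set depended on its limits: 21 genes met a day 7 limit of 2 and a day 21 limit of 0.5. TMM scaling gave 112 genes and a pseudocount of 0.5 gave 99, 88 and 70 of them shared with the 88. Leaving out each library in turn gave 73 to 105, and leaving out delayed day 7 replicate 5 together with immediate day 21 replicate 4 gave 115.

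Between delayed and immediate repair at day 14, 0 early genes were called under any alternative run, and over all genes DESeq2 called 8 where edgeR called 0. Leaving out each library in turn moved the median difference between -0.18 and 0.19 at day 14. At day 7 and day 21, where the rule used the libraries, it was -0.22 to 0.23 and -0.19 to 0.36.

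Against control at day 14, a fit of the compared groups alone tested fewer early genes. It called 31 of 77 in delayed repair, against 9528 of all 14733 genes tested. In immediate repair it called 31 of 76, against 8907 of all 14649 genes tested. ENSRNOG00000002916 did not pass the filter there and has no value. Leaving out each library gave 11 to 22 calls after delayed repair and 10 to 26 after immediate repair, with medians of 0.30 to 0.46 and 0.20 to 0.56. Over all genes the calls were then 7485 to 7934 after delayed and 7511 to 7829 after immediate repair, of 15973 to 16043 genes tested. The signs of near-zero differences turned. Leaving out each library, ENSRNOG00000005053 was at -0.487 to 0.0633 against control at delayed day 14 and at -0.67 to 0.56 at immediate day 14. Its delayed minus immediate difference was -0.751 to 0.50, that of ENSRNOG00000051594 was -1.85 to 2.74 and that of ENSRNOG00000043098 was -0.218 to 0.0773. With no filter on low counts the lower calls of ENSRNOG00000043098 were lost in both repairs and that of ENSRNOG00000002916 in immediate repair. The causes were not tested.

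In deviations from their group means, same-numbered delayed and immediate libraries correlated at -0.66 to -0.11 at day 7. At day 14 they correlated at 0.08, 0.41, 0.30 and 0.15. Delayed day 14 replicates 2, 3 and 4 each correlated best with the same-numbered immediate library, and replicate 1 with immediate replicate 3. Whether libraries of the same number are linked was not tested at day 7 or day 14, and the labels do not say. With the replicate block, 13 early genes were called against control at delayed day 14 (11 higher, 2 lower) with a median of 0.22, and 16 at immediate day 14 with a median of 0.25. Over all 16015 genes tested the block gave 8106 calls at delayed and 7986 at immediate day 14. The lower call of ENSRNOG00000043098 at immediate day 14 was lost with the block (edgeR adjusted p = 0.0517). ENSRNOG00000005053 was then at -0.0398 at immediate day 14.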
